A study of Homo sapiens with 4 samples.

Results

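The 4 HOX clusters are the regions of the human genome that hold the 39 HOX genes: HOXA on chromosome 7, HOXB on chromosome 17, HOXC on chromosome 12 and HOXD on chromosome 2. They were examined here for H3K9me2, histone H3 dimethylated at lysine 9. Members were all deposited H3K9me2 peaks that overlapped 1 of 4 fixed intervals on hg19: HOXA from 27.13 to 27.25 Mb of chromosome 7, HOXB from 46.6 to 46.81 Mb of chromosome 17, HOXC from 54.33 to 54.45 Mb of chromosome 12 and HOXD from 176.95 to 177.06 Mb of chromosome 2. There were 244 such peaks among 1000000 in the series, 36 in HOXA, 102 in HOXB, 60 in HOXC and 46 in HOXD. The lists held 250000 peaks per library, of which the clusters held 54 and 59 in the control libraries, with 59 and 72 in the knockouts (here and below, replicate 1 and then replicate 2).

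All 4 libraries were CUT&RUN maps, which sequence the DNA that an antibody-guided nuclease cuts free around marked nucleosomes. The cells were K562, an established human myeloid leukemia line, with a CRISPR guide against HPRT (gHPRT, the control, 2 libraries) or against CUX1 (gCUX1, called knockout by the labels, 2 libraries). CUX1 is a homeodomain transcription factor that lies outside the HOX clusters. The labels do not say whether the edited cells were clones or pools, or whether replicates were separate cultures, so the spread between libraries, on which every p-value here rests, may be technical. The peak names of both knockout libraries read "cux1kd", and those of control replicate 1 alone carry a "sub" tag, neither of which the labels explain. Peaks of a histone mark do not measure expression, so the cell type was not checked against marker genes.

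HOX genes encode homeodomain transcription factors that set position along the body axis, and in blood several of them act in stem cells and are switched off as cells mature. Within a cluster the genes stand in the order of their paralogue numbers: low numbers are used toward the head, high numbers toward the tail. Silent HOX clusters are best known as targets of Polycomb and H3K27me3, whereas H3K9me2, laid down by the enzymes EHMT1 and EHMT2, forms broad and shallow domains over much of the silent genome. In RefSeq's gene order the paralogue numbers rise with the coordinate in HOXA and HOXB, except that HOXA3 and HOXB3, ordered by the gene's end, come after higher numbers, while HOXC runs from HOXC13 to HOXC4 and HOXD from HOXD13 to HOXD1. By paralogue number 12 of the 39 genes are anterior (1 to 4), 11 are central (5 to 8) and 16 are posterior (9 to 13). The gene table used here is on another genome build than the peaks, so only its order was used and no peak was assigned to a gene.

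The clusters are copies of 1 ancestral cluster, which their microRNA genes show at the level of bases. The mature sequences below (RefSeq, GRCh38.p14, 5′ to 3′) are printed because they sit at matching places in different clusters. Capitals mark the seed, bases 2 to 8.
hsa-miR-196b-5p (HOXA, between HOXA9 and HOXA10): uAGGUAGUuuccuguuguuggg
hsa-miR-196a-5p (HOXB, between HOXB9 and HOXB13, and HOXC, between HOXC10 and HOXC9): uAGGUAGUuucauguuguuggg
hsa-miR-10a-5p (HOXB, between HOXB4 and HOXB5): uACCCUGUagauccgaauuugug
The miR-196 sequences share the seed AGGUAGU and differ by A12C, counted from the 5′ end with miR-196a first. HOXB3 also spans MIR10A. The counterpart of MIR10A, MIR10B, lies between HOXD8 and HOXD4, but its 5p sequence was missing from the reference used and is not printed. These copies stood in clusters whose H3K9me2 coverage differed, as described next.

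HOXA was the least covered of the 4 clusters in every library. Peaks covered 18.98% and 13.9% of HOXA in the controls, with 8.03% and 21.8% in the knockouts. HOXB had 34.7% and 39.3% in the controls, with 15.98% and 34.6% in the knockouts. HOXC had 40.1% and 44.2% in the controls, with 22.7% and 35.6% in the knockouts. HOXD had 48.2% and 36.2% in the controls, with 23.9% and 44.8% in the knockouts. Knockout replicate 1 was the lowest library in all 4 clusters, and in HOXA the highest was knockout replicate 2.

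The order HOXA, HOXB, HOXC, HOXD by mean coverage was firm only at its low end. The mean difference of HOXA was -15.4 points from HOXB, -19.97 points from HOXC and -22.6 points from HOXD, each negative in 4 of 4 libraries (two-sided exact sign-flip permutation p = 0.13, the smallest that 4 libraries allow). HOXB was lower than HOXC in 4 of 4 libraries, with a mean difference of -4.53 points and an SD of 2.43 (exact permutation p = 0.13). HOXD did not differ from HOXB or HOXC beyond the spread between libraries, with differences of HOXB minus HOXD from -13.5 to 3.02 points and of HOXC minus HOXD from -9.12 to 7.98 points (exact permutation p = 0.25 and 0.375).

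Set against the whole genome, HOXC and HOXD were covered densely in every library, HOXB in 3 of 4, and HOXA lay near or below the genome value. Peaks covered 22.8%, 22.4%, 13.96% and 19.3% of chromosomes 1 to 22 and X in control replicates 1 and 2 and knockout replicates 1 and 2. In that order, HOXA had 0.831, 0.623, 0.575 and 1.13 times its library's genome value, the last being the only one above it. HOXD had 2.11, 1.62, 1.71 and 2.32 times, and HOXC 1.76, 1.98, 1.62 and 1.85 times. HOXB ranged from 1.14 times in knockout replicate 1 to 1.79 times in knockout replicate 2. Among all stretches of the cluster's own length, HOXD lay above 97.5%, 78.98%, 86.2% and 98.8% of them, and HOXC above 86.3%, 95.1%, 82.8% and 89.6%. HOXB lay above 74.2% and 88.6% in the controls but above 53.7%, near the middle, in knockout replicate 1, and above 89.6% in knockout replicate 2. HOXA lay above 40.7%, 33.5%, 27.9% and 52.1%, near or below the middle. No sequence was left out as unmappable, and between 7.97% and 10.6% of the stretches held no covered base. The flanks of each cluster were also above the genome value in every library. They ran from 1.09 times (HOXA, control replicate 1) to 1.89 times (HOXD, knockout replicate 1). The percentiles describe each library and were given no test.

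**Figure D1:**
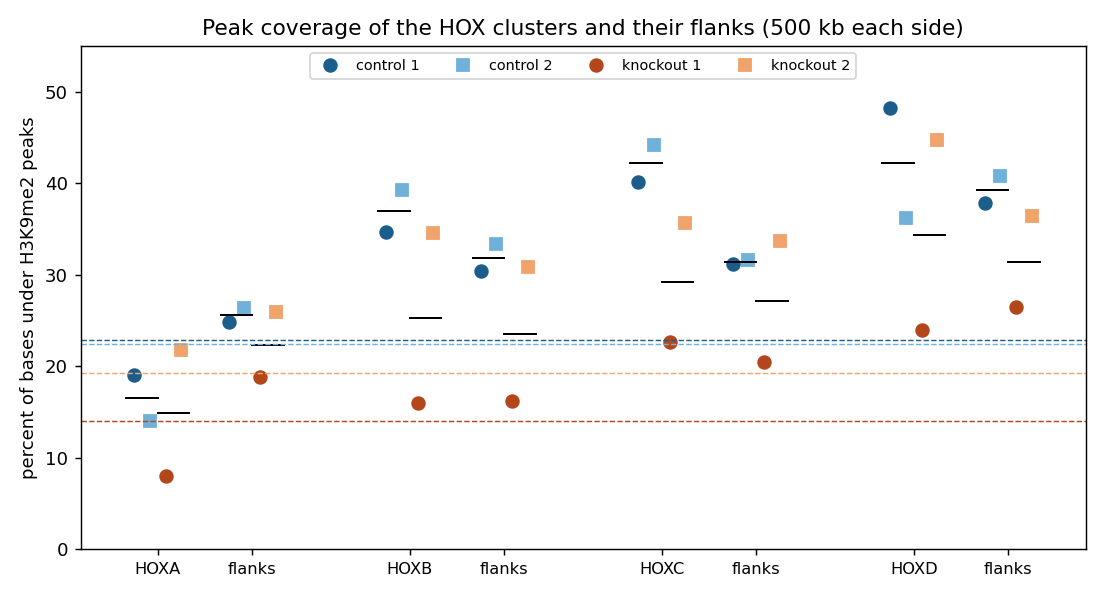
Percent of bases under H3K9me2 peaks in each HOX cluster and in its flanks of 500 kb on each side. Points are libraries, short black lines are the means of the 2 controls and of the 2 knockouts, and dashed lines are each library's value over chromosomes 1 to 22 and X. HOXA lies between 8.03% and 21.8%, below its flanks in each library, and knockout replicate 1 is the lowest point in all 8 columns.

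Taken as a whole, the flanks of HOXA did not share its low coverage. In the flanks of HOXA, 500 kb on each side, peaks covered 24.8% and 26.3% in the controls, with 18.8% and 25.9% in the knockouts. HOXA minus its flanks was -5.84 and -12.4 points in the controls, with -10.8 and -4.09 points in the knockouts, negative in 4 of 4 libraries (mean -8.28 ± 3.94 points, SD, n = 4, exact sign-flip permutation p = 0.13). Of all 120-kb stretches of the genome, 13.3% were lower than their flanks in all 4 libraries. Of the 20 steps of 50 kb in the flanks, 15, 16, 19 and 14 were covered more densely than HOXA in control replicates 1 and 2 and knockout replicates 1 and 2. With 1 limit of −log10 p (1.49) for all lists the mean was -4.26 points, and control replicate 2 alone was then above its flanks, by 1.40 points. With 1 limit of −log10 q (0.0335) the mean was -3.42 points, and control replicate 2 was again the only library above its flanks, by 4.42 points. With the strongest 100000 peaks of each list, control replicate 2 and knockout replicate 2 were above their flanks, by 0.354 and 0.635 points (mean -2.31 points, exact permutation p = 0.5), and at equal covered length knockout replicate 2 was above by 0.549 points. Against nearer flanks of 250 kb, with whole lists, HOXA differed by -3.56 and -4.76 points in the controls, with -10.2 and -3.29 points in the knockouts.

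HOXC went the other way, with more coverage than its flanks in 4 of 4 libraries (mean 6.41 ± 5.25 points, SD, n = 4, exact sign-flip permutation p = 0.13). Of the 20 steps of 50 kb in its flanks, 4 and 2 were covered more densely than HOXC in the controls, with 6 and 11 in the knockouts. In knockout replicate 2 the median step had 37.7%, above the 35.6% of HOXC. HOXC was above its flanks in 3 of 4 libraries with 1 limit of −log10 q, with knockout replicate 1 at -1.24 points (exact permutation p = 0.25). The share of 120-kb stretches that were higher than their flanks in all 4 libraries was 11.8%. HOXB was above its flanks in 3 of 4 libraries, by 4.32 and 5.90 points in the controls and by 3.79 points in knockout replicate 2, against -0.204 points in knockout replicate 1 (mean 3.45 ± 2.60 points, SD, n = 4, exact permutation p = 0.25). HOXD was split, at 10.4 and 8.33 points in control replicate 1 and knockout replicate 2 and at -4.52 and -2.50 points in the other libraries (mean 2.92 ± 7.52 points, SD, n = 4, exact permutation p = 0.5). For HOXD the spread between libraries was larger than the difference from the flanks.

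**Figure D2:**
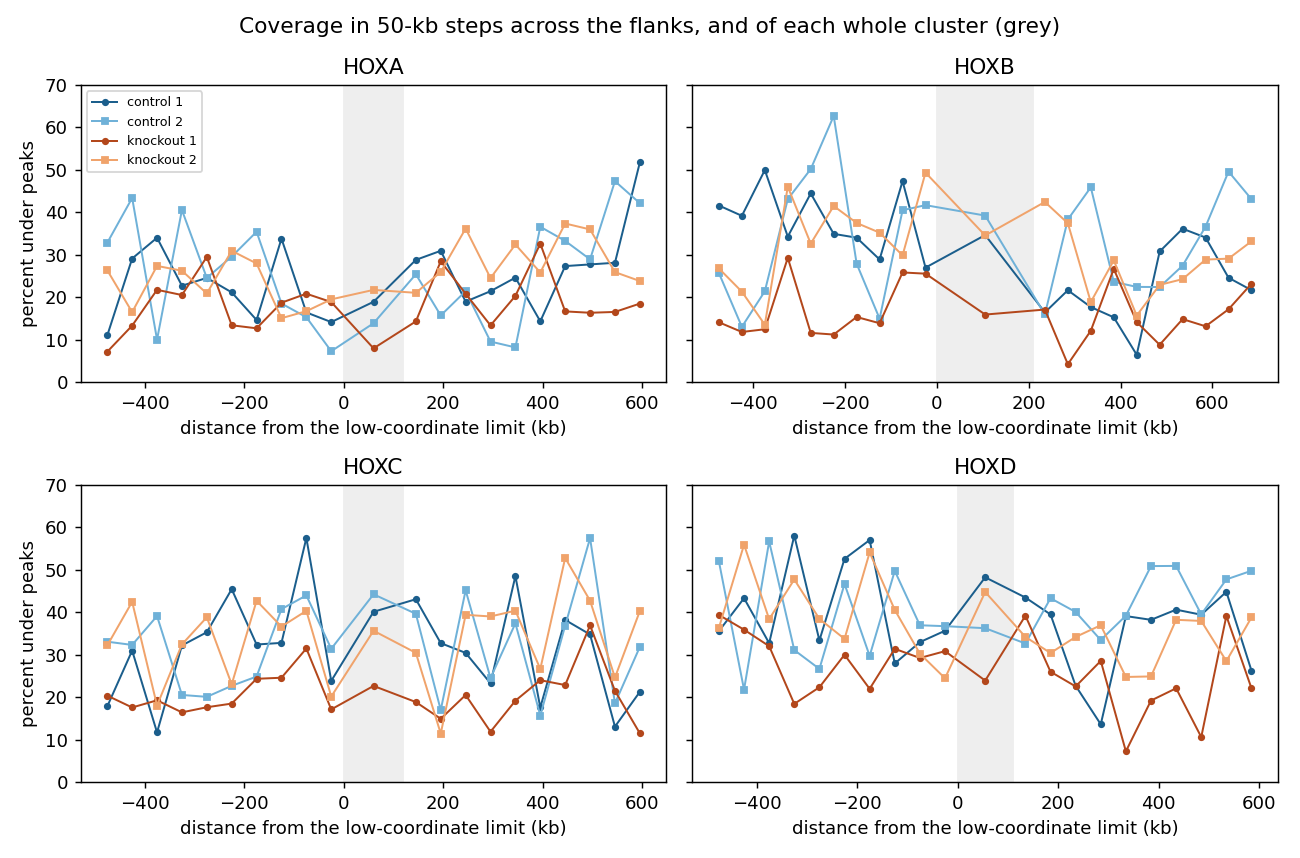
Percent of bases under peaks in steps of 50 kb across the flanks and in each whole cluster (the point in the grey band), against distance from the low-coordinate limit of the cluster in kb, with 1 line per library. Single steps swing widely between libraries, from 6.52% to 49.98% in the flanks of HOXB in control replicate 1, and the cluster points lie within the range of the steps around them.

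The title of the series names a loss of the mark in CUX1-deficient cells, and the groups were compared for it. HOXB and HOXC were covered less in both knockout libraries than in both controls, and HOXA and HOXD had overlapping groups. In HOXB the margin was narrow, at 34.58% in knockout replicate 2 against 34.68% in control replicate 1. The groups of HOXB overlapped with gaps up to 2000 bp filled, and with the cluster limits drawn in by 10 kb (exact permutation p = 0.667 for each). HOXC averaged 42.2% ± 2.91 in the controls against 29.1% ± 9.18 in the knockouts (SD, n = 2 each), which differ by -13.01 points. HOXB had 36.97% ± 3.24 and 25.3% ± 13.2, a difference of -11.7 points. HOXD had 42.2% ± 8.46 and 34.3% ± 14.7 (-7.89 points), and HOXA had 16.5% ± 3.56 and 14.9% ± 9.73 (-1.55 points). The two-sided exact permutation p was 0.33 for HOXB and HOXC, the smallest that 2 libraries against 2 allow, 0.667 for HOXD and 1 for HOXA, so none of these 4 tests could pass a threshold of 0.05.

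Lower coverage in both knockouts was common over the genome. Both knockouts lay below both controls in 44.6% of 120-kb, 50% of 210-kb and 44% of 110-kb stretches, the lengths of HOXA and HOXC, of HOXB and of HOXD. Both knockouts lay above both controls in 4.48%, 3.6% and 4.77%. The clusters lay below in 2 of 4 cases (HOXB only narrowly), a share near that background, and above in none. Taking the 4 clusters as 1 length of 560 kb, peaks covered 35.1% and 34.3% in the controls, with 17.3% and 34.1% in the knockouts. Knockout replicate 2 was thus 0.240 points below control replicate 2, and the ratio of group means, 0.739, lay beside 0.735 for the genome and 0.814 for the flanks. The lower mean of the clusters therefore came almost wholly from knockout replicate 1, whose list also covered the least of the genome. Every list holds the same number of peaks, 250000, and the list of knockout replicate 1 had the smallest median width, 1324 bp. Its lowest −log10 p, 1.49, was the highest of the 4 lists. The part of these properties in its lower coverage was not tested. Without knockout replicate 1 the differences were 5.32 points in HOXA, -2.39 in HOXB, -6.52 in HOXC and 2.53 in HOXD.

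The lists ended at different strengths, and the differences moved with the limit at which they were read. With 1 limit of −log10 p the knockout minus control difference was 4.835 points in HOXA, 1.003 in HOXB and 8.64 in HOXD, opposite in sign to the whole lists, and -1.52 in HOXC. With 1 limit of −log10 q it was -0.183 points in HOXA, 2.655 in HOXB, -0.691 in HOXC and 6.91 in HOXD. At equal covered length per library it was 6.63, -5.54, -12.98 and 1.05 points for HOXA, HOXB, HOXC and HOXD. Within these settings the sign for HOXC stayed negative, and for HOXA, HOXB and HOXD it did not hold. The groups of HOXC overlapped at both limits, however, so only the sign of a small mean difference was kept there. With the limit of −log10 p HOXC had 18.8% and 32.6% in the controls, with 22.7% and 25.7% in the knockouts. With that of −log10 q it had 10.8% and 35.9% in the controls, with 14.5% and 30.8% in the knockouts.

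Relative to its own flanks, a measure read within 1 list, HOXC stood lower in the knockouts. Against each library's genome value the groups overlapped, at log2 ratios of 0.812 and 0.983 in controls and 0.699 and 0.887 in knockouts. That difference was -0.105 (exact permutation p = 0.667). HOXC exceeded its flanks by 8.96 and 12.6 points in the controls, against 2.18 and 1.92 points in the knockouts, so the groups did not overlap. The difference was -8.72 points (means of 10.8 ± 2.56 for controls against 2.05 ± 0.188 for knockouts, SD, n = 2 each, exact permutation p = 0.33, the smallest possible). It was -7.14 points with 1 limit of −log10 p and -9.04 points with 1 limit of −log10 q, and it ranged from -15.5 to -4.39 points over the 14 alternatives run. With flanks of 250 kb the groups overlapped, at 3.11 and 11.5 points in the controls against 2.52 and 3.29 in the knockouts (difference -4.39 points, exact permutation p = 0.667). The flanks themselves overlapped between groups, at 31.1% and 31.6% in the controls, with 20.5% and 33.7% in the knockouts. Both knockouts lay below both controls by this measure in 17.5% of 120-kb stretches of the genome and above them in 17.8%, where the median difference was -0.0231 points.

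With flanks of 500 kb the other clusters had smaller differences between groups by this measure, but with flanks of 250 kb the difference in HOXB, -7.64 points, was larger than in HOXC. In HOXB it averaged 5.11 ± 1.12 points for controls against 1.79 ± 2.82 points for knockouts (SD, n = 2 each, exact permutation p = 0.33), a difference of -3.32 points with groups that did not overlap, which was the case in 18.1% of 210-kb stretches (18.4% in the other direction). The groups of HOXB overlapped in 6 of 9 other ways of reading the lists or the flanks, and those of HOXC in 1 of 9. Those of HOXD overlapped in 9 of 9 and those of HOXA in 7 of 9. In HOXA the knockouts were the lower ones with 1 limit of −log10 q and the higher ones with flanks of 1 Mb. Shares over the genome were not computed for these other ways. In HOXD the means were 2.93 ± 10.5 and 2.92 ± 7.65 points and in HOXA -9.13 ± 4.64 and -7.43 ± 4.72 points (SD, n = 2 each), and in both the groups overlapped. Among 110-kb stretches, the length of HOXD, 17.7% had both knockouts below both controls and 17.9% had them above. Of the 4 clusters HOXB and HOXC were negative in all 14 alternatives run for this measure, while HOXA and HOXD turned sign in 5 of 14 each. The 14 include a replicate block, which cannot change a difference of means.

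**Figure D3:**
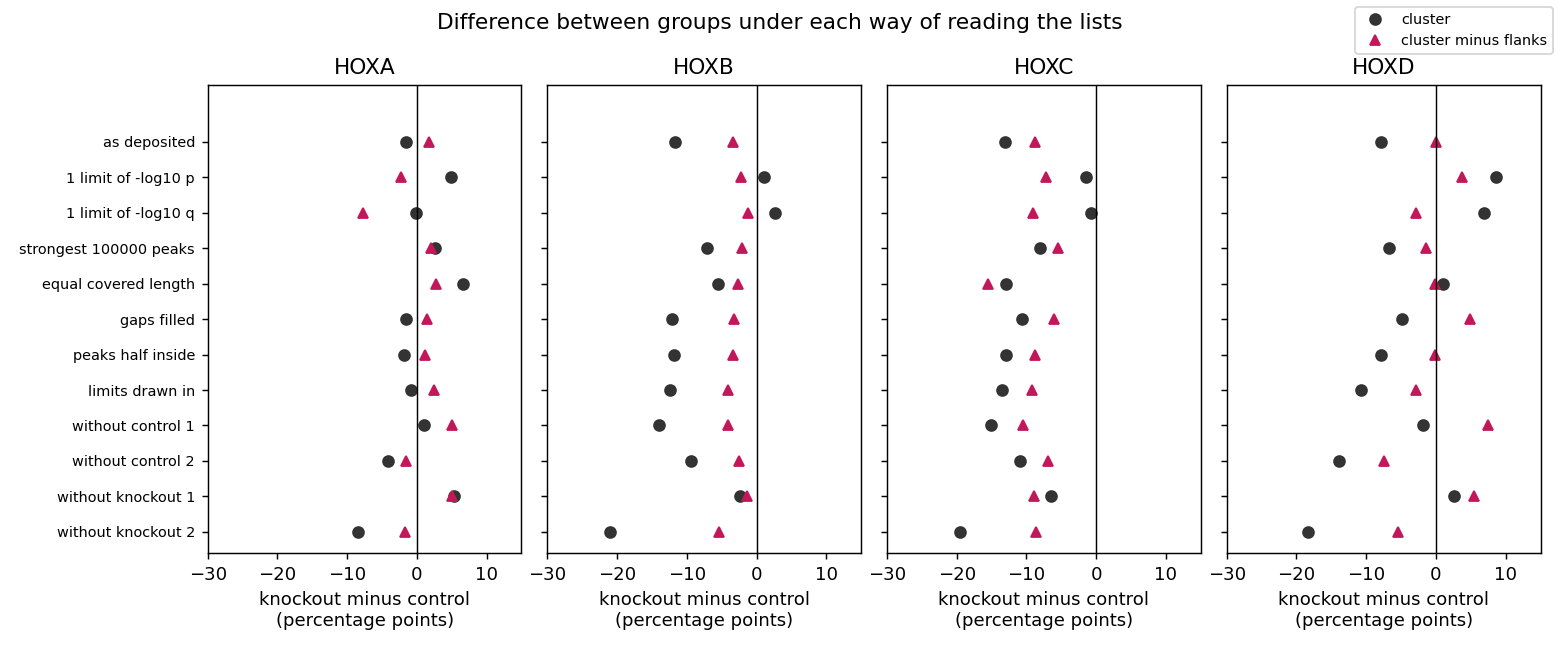
Knockout minus control difference in percentage points for each cluster, for the percent covered (black circles) and for the cluster minus its flanks (red triangles), under each way of reading the lists and with each library left out. HOXC is left of 0 throughout by both measures, while the circles of HOXA, HOXB and HOXD lie on both sides of 0. Flanks of 250 kb and of 1 Mb and the replicate block are not shown.

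In 100-kb windows fitted over the genome (limma, Benjamini-Hochberg adjustment over 27532 windows with a mean of at least 1%), 0 of the 8 windows that lay at least 50% in a cluster passed a threshold of 0.05, and 0 of 8 had an unadjusted p under 0.05. Over the genome 0.0981% of windows were called lower and 0% higher, and an unadjusted p under 0.05 was found with a lower value in 14.3% and with a higher value in 0.694%. All 8 HOX windows had a lower mean in the knockouts, as did 80.1% of all windows tested (ties included), with a median difference of -8.26 points against -5.93 points over all windows tested. The most negative was the high-coordinate window of HOXB, chr17:46700001-46800000, which had 29.2% and 46.05% in the controls, with 13.1% and 32.996% in the knockouts. Its difference was -14.6 points (SE 8.03, limma adjusted p = 0.370), and the groups overlapped because knockout replicate 2 lay above control replicate 1. Without knockout replicate 2 it was -24.5 points and passed (limma adjusted p = 0.0394), when 2308 windows, or 8.38%, passed over the genome. That fit has 1 knockout library, which is assumed to vary as the controls do.

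Both windows of HOXC had knockouts below controls. The first, chr12:54300001-54400000, had 35.9% and 41.1% in the controls, with 22.2% and 29.01% in the knockouts, and the knockouts differed by -12.9 points (SE 8.27; limma adjusted p = 0.440). The second, chr12:54400001-54500000, had 41.7% and 39.4% against 21.1% and 33.96%, which came to -13.03 points (SE 8.66; limma adjusted p = 0.456). These were the 2 of 8 HOX windows whose groups did not overlap, or 25%, against 43.3% of all windows tested, and none lay above, against 4.97%.

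The other 5 windows had overlapping groups and smaller differences. Those of HOXD, starting at 176900001 and 177000001, differed by -8.32 and -8.13 points (limma adjusted p = 0.664 and 0.667). The low-coordinate window of HOXB, starting at 46600001, differed by -8.19 points (limma adjusted p = 0.637), and in it knockout replicate 2, at 38.99%, lay between the controls. Those of HOXA, starting at 27100001 and 27200001, differed by -2.785 and -1.07 points (limma adjusted p = 0.850 and 0.956). In data simulated from these windows, the fit found 62% of the windows lowered by 40 points and 1% of those lowered by 20. Only densely covered windows were lowered, and a drop was cut short where the simulated coverage was smaller than the drop. In such windows, differences of the size seen in the clusters were below what this fit could call.

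At a finer scale the clusters broke into short covered and bare stretches that differed from library to library. All 56 windows of 10 kb in the clusters passed the filter on low values, and limma called 0 of them, with 3 at an unadjusted p under 0.05 and lower, or 5.36%, against 3.53% of 256244 windows. None was higher at that level, against 0.288%. Over the genome it called 0% in either direction. Both knockouts lay below both controls in 12 of 56, or 21.4%, against 23.6% over the genome, and above both in 5, or 8.93%, against 9.4%. The simulated fit recovered 0% of changes set at 60 points at this scale. Those too were placed in densely covered windows and were cut short where coverage was smaller. The lack of calls thus says nothing about changes in single windows.

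The 3 windows with an unadjusted p under 0.05 were singled out after their values were seen. In HOXB, chr17:46660001-46670000 had 74.2% and 54.9% in the controls, with 19.3% and 19.4% in the knockouts, and chr17:46780001-46790000 had 59.8% and 48.99% against 0% and 11.2%. In HOXD, chr2:177010001-177020000 had 100% and 18.3% in the controls, with 17.6% and 4.76% in the knockouts, with most of its difference in control replicate 1. Their adjusted p was 0.834 each in limma.

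The most covered 10-kb window of each cluster, averaged over the libraries, showed how far single libraries differed. In HOXA it was chr7:27230001-27240000, with 18.45% and 28.6% in the controls, with 20.2% and 50.4% in the knockouts. In HOXC it was chr12:54430001-54440000, with 53.8% and 45.7% against 37.2% and 63.4%, and in HOXD the last 10 kb, from position 177050001 at the HOXD1 end, with 45.1% and 26.8% against 53.8% and 74.3%. In HOXB it was chr17:46680001-46690000, with 58.2% and 43.4% against 32.3% and 53.3%. Only the HOXD window had groups that did not overlap, and there the knockouts were the higher ones.

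The peaks were weak by the caller's own values, as the lists were throughout. The authors' fold enrichment over local background had a median between 1.74 and 1.95 over the HOX peaks of a library, beside 1.72 to 1.95 over whole lists. No HOX peak reached a q of 0.05, and neither did nearly all others, since 0.0056%, 0.124%, 0.0024% and 0.183% of the lists did in control replicates 1 and 2 and knockout replicates 1 and 2. Of the HOX peaks 63.0% and 62.7% in the controls, then 50.8% and 58.3% in the knockouts, had a −log10 p above the median of their list. The strongest was in HOXB in control replicate 2, chr17:46632434-46633584, with a −log10 p of 3.35 and a −log10 q of 0.767, and 0.322% of that list had a stronger p. In the same place control replicate 1 had its strongest HOXB peak, chr17:46632895-46636901, with a −log10 p of 2.21. Knockout replicate 2 also had a peak there, chr17:46632847-46636217, with a −log10 p of 1.87. The strongest HOXB peaks of the knockouts were chr17:46708707-46709244 in replicate 1 and chr17:46665074-46666022 in replicate 2.

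Strongest peaks were scattered in the other clusters too. In HOXC the controls had theirs at chr12:54406564-54407021 and chr12:54404510-54407495, which overlapped, with −log10 p of 2.38 and 2.37. The knockouts had theirs at chr12:54401726-54402156 (2.14) and chr12:54381003-54383481 (2.85), and both also had a weaker peak over the controls' place, chr12:54405630-54407265 and chr12:54404740-54408009 (1.75 and 1.44). In HOXD they were chr2:176995718-176997400 and chr2:176983058-176985692 in the controls (1.84 and 2.96) and chr2:176959274-176962397 and chr2:177050259-177052683 in the knockouts (1.95 and 2.01), with no overlap between any of the 4. In HOXA the strongest reached a −log10 p of only 1.77 and 1.85 in the controls, at chr7:27129498-27130573 and chr7:27235886-27238743, and of 1.94 and 2.07 in the knockouts, at chr7:27234546-27235737 and chr7:27249989-27253020. The first and last of these straddled the limits of the HOXA interval, with 53.3% and only 0.396% of their length inside. The strongest peak of knockout replicate 2 wholly inside HOXA was chr7:27198602-27201037 (2.00).

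HOX peaks had larger median widths in the controls. The median width of HOX peaks was 3150.5 and 2985 bp in the controls, with 1213 and 2398.5 bp in the knockouts. Over whole lists it was 2335, 2275, 1324 and 1900 bp in the same order, and the narrowest peak of a list was 362, 369, 263 and 339 bp, so the caller's lower limit differed between libraries and its part in the widths was not tested. The widest HOX peak lay in HOXD in control replicate 1, chr2:177006510-177021989, at 15480 bp. In that interval control replicate 2 and both knockouts had separate shorter peaks, and the widest HOXD peak was 9875, 6122 and 8146 bp in those libraries. In HOXA no peak was wider than 7515 bp.

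**Figure D4:**
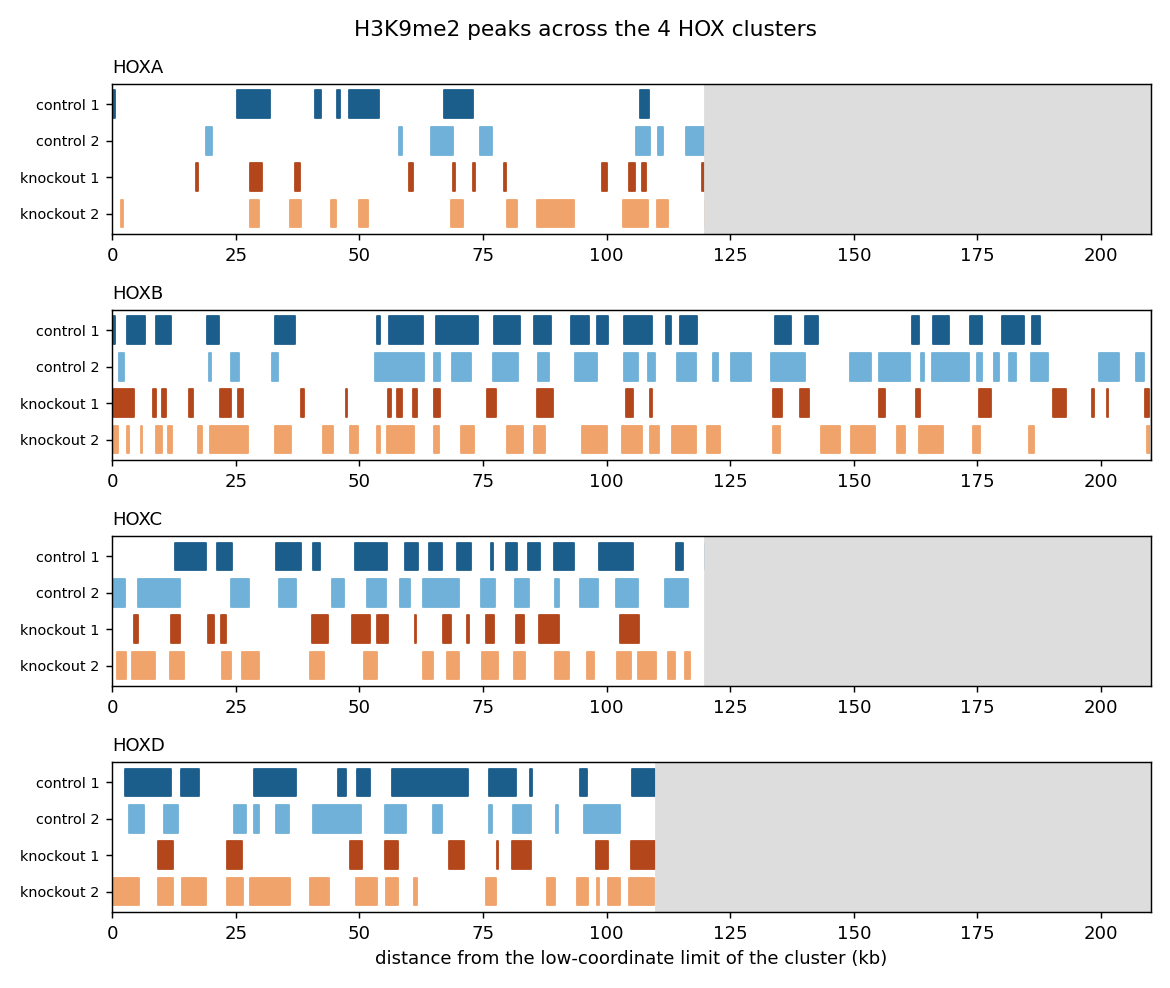
Deposited H3K9me2 peaks (bars) in each of the 4 libraries, against distance from the low-coordinate limit of each cluster in kb, with grey beyond the cluster's other limit. HOXA holds 7 to 11 peaks per library with long bare stretches between them, and few bars line up in all 4 libraries of any cluster.

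Little of any cluster was covered in every library. All 4 libraries covered 16.1 kb, or 2.87% of the clusters, beside 2.39% of the flanks and 1.11% of the genome, and in HOXA 0.595%, in HOXB 3.25%, in HOXC 4.09% and in HOXD 3.31%. Stretches of at least 1 kb covered in all 4 numbered 3 in HOXB, 1 in HOXC and 2 in HOXD, and none was in HOXA. The longest was in HOXC, chr12:54432795-54434964 (2170 bp). Those of HOXB were chr17:46686093-46687505, chr17:46703893-46705352 and chr17:46734007-46735133, and those of HOXD chr2:176960439-176961918, at the HOXD13 end, and chr2:177006510-177007756.

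HOXA was also the cluster with the most sequence outside every list. No library had a peak over 53.6% of HOXA, against 30.02% of HOXB, 19.6% of HOXC and 20.1% of HOXD. Over the genome the share was 50.7%, near that of HOXA. Over the pooled flanks of all 4 clusters it was 31.4%. The longest stretch bare in all 4 libraries was chr7:27132204-27146876, 14673 bp in the low-coordinate part of the cluster, while the longest were 5369 bp in HOXB, 3430 bp in HOXC and 4157 bp in HOXD. The names of the peaks hold running numbers, with gaps where a called peak is taken to be missing from the list. These spanned 17 and 15 values across HOXA in the controls, of which 7 each were in the lists. That was 41.2% and 46.7%, below the 58.1% and 64.7% of the whole lists. In HOXC 15 of 16 and 14 of 19 numbers were listed in the controls, and in the knockouts 11 of 16 in each library were listed in HOXA, or 68.8%, above the 55.8% and 65.6% of their whole lists.

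Bases covered in both libraries of 1 group and neither of the other were more numerous for the controls, whose lists also covered more of the genome. Both controls and no knockout covered 29.7 kb of the clusters, and both knockouts and no control 9.39 kb. These were 5.30% and 1.68% of the clusters, beside 4.56% and 2.06% of the flanks and 3.80% and 1.45% of the genome. Stretches of at least 1 kb of the first kind numbered 30.4 per Mb of the clusters, 17.5 of the flanks and 14.7 of the genome, and of the second kind 7.14, 6.25 and 4.95 per Mb, with no test. In HOXA the order was the other way, with 1.79 and 2.30 kb. HOXB held 8 control-only stretches of at least 1 kb, the longest at chr17:46677697-46679849 (2153 bp), and 1 knockout-only stretch, chr17:46621801-46623967 (2167 bp). HOXC held 4 control-only stretches, with the longest of all clusters at chr12:54363763-54367122 (3360 bp), and no knockout-only stretch. HOXD held 4, the longest at chr2:177014837-177016670 (1834 bp), and 1 knockout-only stretch at chr2:176973323-176974660. HOXA held 1 control-only stretch, chr7:27197143-27198601, and 2 knockout-only stretches, chr7:27166939-27168047 and chr7:27234546-27235737.

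How much of the clusters a pair of libraries shared did not sort by group. The Jaccard index (shared bases as a fraction of the bases under a peak in at least 1 of the pair) was 0.262 within the control pair and 0.195 within the knockout pair. Across groups it was 0.184 and 0.181 for knockout replicate 1 with control replicates 1 and 2, and 0.291 and 0.304 for knockout replicate 2 with the same. Over the pooled flanks the values were close to these, 0.248 within the control pair and 0.178 within the knockout pair. Across groups the flanks had 0.190 and 0.192 for knockout replicate 1 with control replicates 1 and 2, and 0.268 and 0.260 for knockout replicate 2. Over the genome the values were lower, 0.230 within the control pair, 0.157 within the knockout pair and 0.160 to 0.221 across groups, and covered length moves with this index. In HOXA it was between 0.0608 and 0.18, and in HOXB, HOXC and HOXD it reached 0.351, 0.385 and 0.368.

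In HOXA, HOXB and HOXD the low-number and high-number parts did not differ in coverage in a way that held across libraries. Each cluster interval was cut at its midpoint, a choice made after the peak positions were seen. The part toward the low numbers was compared with the part toward the high numbers. The parts were named by gene order alone and no gene was placed in either, so they need not divide the genes evenly. The values therefore cannot say whether coverage follows paralogue number. In HOXA the low-number part was covered 25.1% against 12.9% in control replicate 1, and 3.365%, 6.50% and 11.5% against 24.5%, 9.56% and 32.1% in control replicate 2 and knockout replicates 1 and 2. The mean difference was -8.16 ± 15.9 points in HOXA, 4.16 ± 14.6 in HOXB and -4.33 ± 18.8 in HOXD (SD, n = 4 each, exact sign-flip permutation p = 0.375, 0.625 and 0.75). In HOXC the low-number part was denser in 4 of 4 libraries, but by 2.74 ± 2.47 points (SD, n = 4, exact permutation p = 0.13, the smallest possible).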

How the data were processed

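Each library has its own deposited list of broad peaks, without pooling of replicates. The submitters' processing notes name MACS2 2.1.0, deepTools 3.5.1, SAMtools 1.16.1 and BWA 0.7.17, and the build hg19. Read depth is unknown, and neither caller settings nor a background library are given in the sources used here. Each deposited peak carries a score (the whole-number part of 10 times −log10 p), the authors' fold (a ratio over local background), and deposited −log10 p and −log10 q values, which were used only to describe, rank or filter peaks.

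Percent covered was the share of bases under at least 1 peak. Differences of group means were given two-sided exact permutation p-values, and clusters were set against flanks by exact sign flips over the 4 libraries. Windows of 100 and 10 kb on chromosomes 1 to 22 and X were tested with limma 3.58.1 in R 4.3.3 (trended eBayes, mean of at least 1%, Benjamini-Hochberg threshold 0.05), and the fits were tested on simulated data. Overlaps were computed in Python 3.11.15. In RefSeq names, 39 of 39 HOX genes matched. Gene bodies and the other gene lists planned were not analysed here, since no positions on hg19 were used. Named were all 4 clusters, the 8 windows of 100 kb at least 50% in a cluster, the most covered 10-kb window of each cluster, each library's strongest peak per cluster, and stretches of at least 1 kb shared by all libraries or held by 1 group, the longest of which are printed where there were more than 3. Members and lists were chosen with earlier results of these data known, and the genome-wide stretches with flanks, the genome and flank shares of bases covered in 1 group, the midpoint comparison and the 3 windows with an unadjusted p under 0.05 were added after the cluster values were seen. P-values over the 4 clusters are unadjusted.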

Additional observations from a re-analysis of the deposited data

How the results depend on the processing

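The mean difference of each cluster from its flanks kept its sign in all 52 combinations of cluster and alternative, from -9.90 to -2.31 points in HOXA, 1.40 to 5.68 in HOXB, 4.16 to 11.3 in HOXC and 0.437 to 5.40 in HOXD. The knockout minus control difference in percent covered changed sign in 11 of 48 combinations, and that of the cluster minus its flanks in 10 of 56. Both totals include the replicate block, which cannot change a difference of means. In percent covered, the changed values were 4.835 (HOXA), 1.003 (HOXB) and 8.64 points (HOXD) with 1 limit of −log10 p, 2.655 (HOXB) and 6.91 (HOXD) with 1 limit of −log10 q, 2.61 (HOXA) with the strongest 100000 peaks, and 6.63 (HOXA) and 1.05 (HOXD) at equal covered length. For the cluster minus its flanks they were -2.34 (HOXA) and 3.67 (HOXD) with the limit of −log10 p, -7.70 (HOXA) with that of −log10 q, 4.91 (HOXD) with gaps up to 2000 bp filled, -2.59 (HOXA) with flanks of 250 kb and 3.19 (HOXD) with flanks of 1 Mb.

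Leaving out 1 library gave -8.43 to 5.32 points in HOXA, -20.99 to -2.39 in HOXB, -19.5 to -6.52 in HOXC and -18.3 to 2.53 in HOXD for percent covered. The highest value in each cluster was without knockout replicate 1 and the lowest without knockout replicate 2. For the cluster minus its flanks it gave -1.64 to 5.03 points in HOXA, -5.31 to -1.32 in HOXB, -10.5 to -6.91 in HOXC and -7.46 to 7.44 in HOXD.

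Among the windows of 100 kb, 22 of 72 differences changed sign. Dropping the filter on low values or adding a replicate block cannot change these differences, and both are counted in the 72. With 1 limit of −log10 p the windows starting at 176900001, 177000001, 27100001, 27200001 and 46600001 had 6.15, 9.18, 7.35, 11.3 and 2.55 points. With 1 limit of −log10 q the same windows had 3.26, 8.76, 3.83, 6.44 and 6.32 points, and that starting at 54400001 had 2.46. After quantile normalization the first 5 had 2.23, 3.14, 0.963, 3.96 and 1.48. Leaving out 1 library gave ranges of -17.1 to 0.419, -16.7 to 0.4045, -10.4 to 4.82, -9.42 to 7.27 and -18.02 to 1.63 points in the same 5. The number of HOX windows of 100 kb that passed ranged from 0 to 1 with 1 library left out and was 0 in the other alternatives, while the number over the genome ranged from 0 to 2308, against 27. The number of HOX windows of 10 kb that passed was 0 in all 9 alternatives.

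With a replicate block 0 HOX windows passed at either scale, and 172 passed over the genome at 100 kb. The differences in percent covered were unchanged in the blocked comparison (-1.55, -11.7, -13.01 and -7.89 points), whose smallest possible exact permutation p is 0.5. The replicate numbers are not stated to pair libraries, and deviations of same-numbered libraries correlated at 0.0561 over 27532 windows. The cause of the changes of sign was not tested.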
